A study of Mus musculus with 4 samples.

Results

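A set of 10 genes of the endothelin, natriuretic peptide and angiotensin systems were examined in mouse lung ECs after unilateral pneumonectomy (PNX). They are the endothelin ligands Edn1 and Edn3, the endothelin receptors Ednra and Ednrb, the endothelin converting enzyme Ece1, the natriuretic peptide receptors Npr1, Npr2 and Npr3, the angiotensin II receptor Agtr1a and the angiotensin converting enzyme Ace. These 10 of the 24063 genes in the tables were chosen by gene symbol, and each was represented by its transcript chosen by the number of counts summed over the 4 libraries. No difference between groups entered that choice of transcript, but the genes themselves were listed with results of this contrast already known. Their differences are therefore a description, and the adjusted p given for a gene is its value in a fit over all genes.

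Lung ECs were collected with CD31 beads from C57BL6 mice (C57BL6J in the methods) that were 8 week old, either sham operated or 7 days after PNX, the removal of the lung on one side. Each group had 2 libraries, named by group and replicate here, and each library pooled the cells of 2 mice that the methods describe as male. The labels give no transgene and no drug for either group. With pooled mice and 2 libraries per group, the p-values rest on the spread between the 2 libraries of a group, not between single mice. Libraries of a group lay close together, as the values below show. How much of the difference between mice that spread holds was not tested, so a very small p-value does not measure it. The question put to the genes was how vasoactive signalling genes of lung ECs differ between post-PNX and sham-operated lungs, as one part of a study of EC responses to PNX.

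Endothelins are small peptides cut from a larger precursor by endothelin converting enzyme. ECs are the main source of endothelin-1, which contracts vessels through the A receptor on smooth muscle, while the B receptor on ECs triggers nitric oxide release and removes endothelin-1 from the blood, a task for which the lung is known. Natriuretic peptides relax vessels through receptors that make cyclic GMP, and a separate receptor without that activity clears them. ACE on the lung capillary surface is a classical site where angiotensin I becomes angiotensin II.

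Counts on the chosen transcripts totalled between 41367438 and 50952879 per library, and 16208 genes had enough counts to be tested. A level of 3 counts, taken as the limit of detection, corresponded to 0.0589 to 0.0725 CPM (counts scaled to the library total), and this limit covers counting error only. All 10 genes were far above it, the lowest count being 417 for Agtr1a in the second sham library. Although the mice are described as male, each library held 0 counts for all 44 chromosome Y genes listed, while Xist, the RNA of the inactive X chromosome, had 29890 to 36875 counts per library in both groups. This goes against the stated sex in both groups alike. Its part in the differences below was not tested. The endothelial markers Pecam1 and Cdh5 were abundant in every library, between 90191 and 91116 normalized counts for Pecam1 and between 93964 and 110681 for Cdh5. A normalized count is a read count scaled to the mean library size. Markers of other cells were abundant as well. Per transcript length, the alveolar epithelial gene Sftpc had group means of 2893 FPKM in sham and 1889 in post-PNX libraries. The macrophage gene Lyz2 had 1859 and 2156, beside 373.8 and 373.8 for Pecam1. In sample names below, ECs stands for the CD31-selected cells, which held RNA of other cells too.

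After PNX, 7 of the 10 genes were lower and 2 were higher at an adjusted p under 0.01, while Edn3 did not pass. Of all genes tested, 27.8% were lower and 29.3% were higher by that rule, so a difference in either direction was common in these libraries. With a log2 fold change beyond 1 required as well, Edn1 and Npr3 were lower, beside 1.66% of all genes. By that rule 0 of the 10 genes were higher in edgeR's fit and 0 with DESeq2, beside 5.90% of all genes in edgeR's fit. At an unadjusted p under 0.05 the count of higher genes in edgeR was 2. The median log2 fold change of the 10 genes was -0.39, beside 0.00 over all genes tested.

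**Figure D1:**
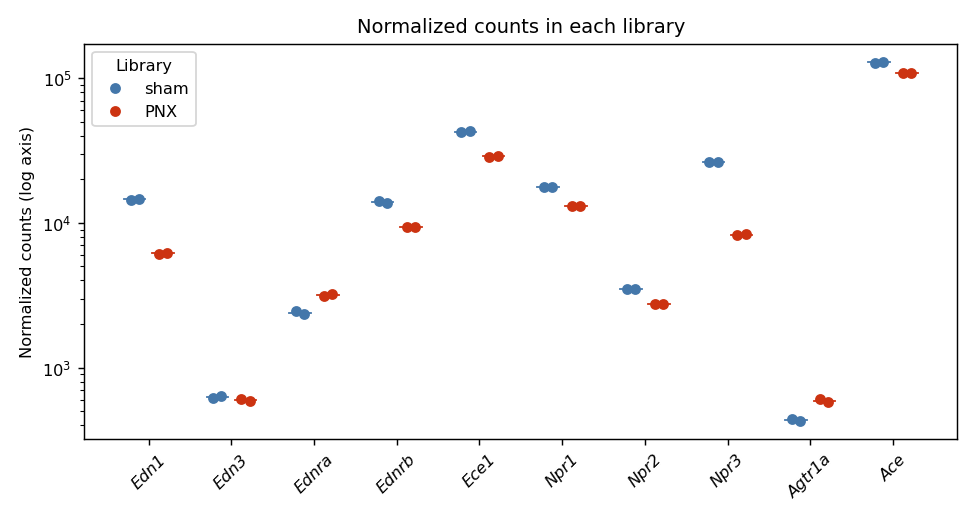
Normalized counts (log axis) of the 10 genes in each of the 4 libraries, with a point per sham (blue) or PNX (red) library and a short line at the group mean. The points of a group lie close together, and the widest gaps between groups on this axis are at Npr3, from a mean of 26406 to 8315, and at Edn1, from 14530 to 6151.

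Edn1 encodes the precursor of endothelin-1 and lies on chromosome 13 from 42301476 to 42307990 (mm10). It had 14486 and 14574 normalized counts in sham libraries versus 6093 and 6210 in the post-PNX libraries. The groups did not overlap, and the level in sham-operated ECs was 2.36 times the post-PNX level. The log2 fold change was -1.24 ± 0.022 (SE), with an adjusted p of 4.28e-50 in edgeR's quasi-likelihood test. In bulk RNA, fewer cells of a type and less RNA per cell cannot be told apart, for Edn1 as for every gene that follows.

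Edn3 encodes endothelin-3, a ligand known for its preference for the B receptor, and lies on chromosome 2 from 174760619 to 174784042. Its normalized counts were 614 and 636 in the sham libraries against 602 and 586 after PNX. The groups were close, although both sham libraries were above both post-PNX libraries. The log2 fold change of -0.07 ± 0.064 (SE) did not pass the test (adjusted p = 0.333, edgeR). Within a library and per transcript length, Edn1 was 30.0 and 29.1 times the level of Edn3 in sham-operated ECs and 12.9 and 13.5 times in post-PNX ECs.

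Ednrb and Ednra, which encode the B and A receptors, moved in opposite directions. Ednrb is on chromosome 14 from 103814615 to 103844508. It had 14228 and 13807 normalized counts in sham-operated ECs and 9388 and 9321 in post-PNX ECs, a decrease of the group mean from 14017 ± 298 to 9355 ± 47.1 (SD, n = 2). The log2 fold change of Ednrb was -0.58 ± 0.021 (SE; adjusted p = 2.07e-33, edgeR), which is short of the fold threshold. Ednra, on chromosome 8 from 77663029 to 77724452, had 2441 and 2352 normalized counts in sham libraries versus 3141 and 3228 after PNX. Both post-PNX libraries were above both sham libraries, and the log2 fold change of Ednra was 0.41 ± 0.033 (SE; adjusted p = 5.22e-17, edgeR). The level of Ednrb over that of Ednra, per transcript length, was 5.07 and 5.10 in sham libraries versus 2.60 and 2.51 in the post-PNX libraries. This ratio is taken within a library, so no scaling between libraries enters it.

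Ece1, the membrane protease that completes endothelin-1, is on chromosome 4 from 137862237 to 137965229. Its normalized counts were 42474 and 43077 in sham-operated ECs and 28480 and 29209 in post-PNX ECs, again without overlap. The log2 fold change was -0.57 ± 0.018 (SE; adjusted p = 4.45e-37, edgeR), close to that of Ednrb and smaller in size than that of Edn1. The level of Ece1 over that of its substrate Edn1 was 1.43 and 1.44 in sham libraries versus 2.27 and 2.29 in the post-PNX libraries, per transcript length.

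Npr3 encodes the clearance receptor, which takes up natriuretic peptides without making cyclic GMP. It lies on chromosome 15 from 11839896 to 11907837, and of the 10 genes it had the largest log2 fold change in size. Npr3 had 26218 and 26594 normalized counts in sham libraries versus 8236 and 8394 after PNX. The sham level was 3.18 times the post-PNX level, a log2 fold change of -1.67 ± 0.020 (SE; adjusted p = 5.25e-59, edgeR).

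The cyclic GMP-forming receptors Npr1 and Npr2 were lower by a smaller amount. Npr1, the receptor for atrial and B-type peptides on chromosome 3 from 90450591 to 90465928, had 17624 and 17622 normalized counts in sham-operated ECs and 13021 and 13089 in post-PNX ECs. For Npr1 the log2 fold change was -0.43 ± 0.020 (SE; adjusted p = 1.77e-28, edgeR). Npr2, the receptor for C-type peptide on chromosome 4 from 43629015 to 43651437, had 3485 and 3508 normalized counts against 2734 and 2732. Neither gene's libraries overlapped between groups, and Npr2 had a log2 fold change of -0.36 ± 0.031 (SE; adjusted p = 1.38e-15, edgeR). Per transcript length, Npr3 stood at 0.874 and 0.886 of the Npr1 level in sham libraries and at 0.371 and 0.377 after PNX. Npr1 was 4.55 and 4.52 times the level of Npr2 in sham-operated ECs and 4.28 and 4.31 times in post-PNX ECs, so this pair kept nearly the same ratio while the first did not.

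**Figure D2:**
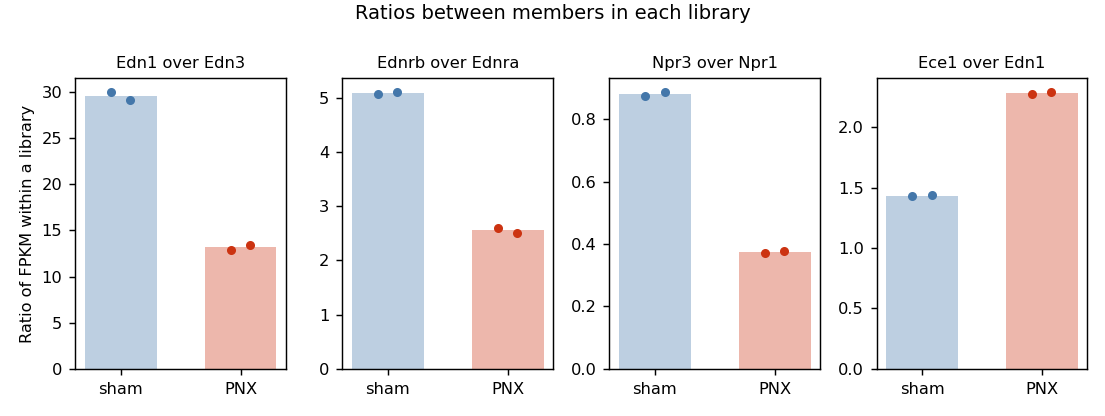
Ratio of the FPKM levels of 4 gene pairs within each library, with a point per sham or PNX library and a bar from 0 to the group mean. Ednrb over Ednra went from 5.07 and 5.10 to 2.60 and 2.51 and Npr3 over Npr1 from 0.874 and 0.886 to 0.371 and 0.377, whereas Ece1 over Edn1 went up from 1.43 and 1.44 to 2.27 and 2.29.

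Ace is on chromosome 11 from 105967948 to 105989964, and its mRNA was the most abundant of the 10 per transcript length. Its normalized counts were 128473 and 129783 in sham libraries versus 108376 and 108990 in the post-PNX libraries. These groups did not overlap, but the log2 fold change of Ace was only -0.25 ± 0.015 (SE; adjusted p = 1.62e-22, edgeR). Agtr1a, the receptor through which angiotensin II contracts vessels, is on chromosome 13 from 30336356 to 30382867. It had 444 and 425 normalized counts in sham-operated ECs and 603 and 576 in post-PNX ECs, with a log2 fold change of 0.44 ± 0.070 (SE; adjusted p = 1.47e-07, edgeR). Per transcript length, Ace was 129.8 and 137.0 times the level of Agtr1a in sham libraries versus 80.6 and 84.9 times after PNX.

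Scaling the libraries to 12 pan-endothelial genes moved the median log2 fold change of all genes by 0.26, from 0.00 to 0.26. Under it Npr3 was still past both thresholds at -1.41 (adjusted p = 5.34e-33, edgeR), and Edn1 at -0.98 was still lower (adjusted p = 1.80e-27) but short of the fold threshold. Ednrb, Ece1, Npr1 and Npr2 also remained lower, at -0.32, -0.31, -0.17 and -0.09. Their adjusted p in edgeR ran from 8.64e-17 for Ece1 to 0.00784 for Npr2, the latter close to the threshold of 0.01. Ace turned to 0.01 (adjusted p = 0.445) and Edn3 to 0.19 (adjusted p = 0.00769), so the direction of these genes depended on the scaling. Ednra and Agtr1a were higher under both scalings, at 0.67 and 0.70 under this one.

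**Figure D3:**
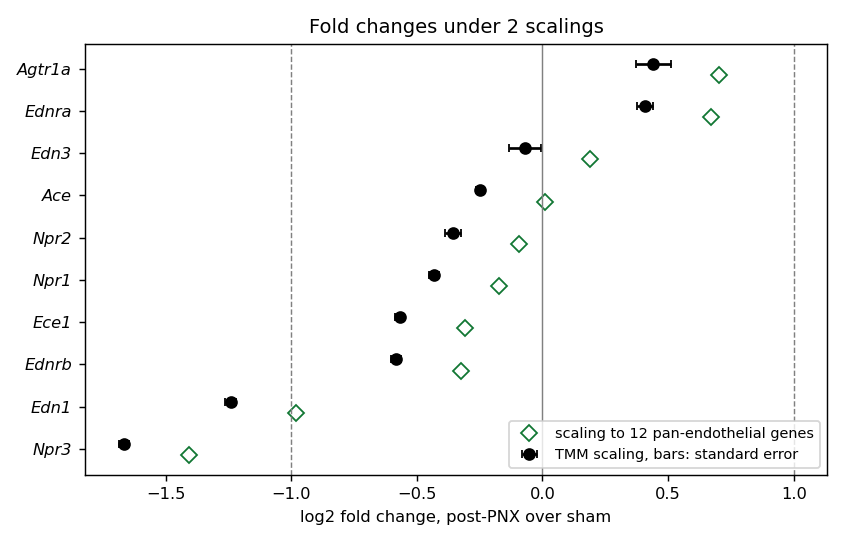
Log2 fold change of post-PNX over sham for each of the 10 genes, as filled points with the SE as bars for TMM scaling and as open diamonds for scaling to 12 pan-endothelial genes, with dashed lines at -1 and 1. Npr3 at -1.67 and Edn1 at -1.24 lie beyond -1 with TMM scaling, and of the diamonds only Npr3, at -1.41, does.

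Levels of different genes were set side by side only as FPKM, which is per transcript length. In sham-operated ECs the order was Ace at 344.5 FPKM, Ece1 at 120.7, Edn1 at 84.2, Npr1 at 58.9, Npr3 at 51.8, Ednrb at 45.4, Npr2 at 12.99, Ednra at 8.94, Edn3 at 2.85 and Agtr1a at 2.58 (means, n = 2). In post-PNX ECs Npr1 at 43.9 FPKM stood above Edn1 at 35.9, Ednrb at 30.5 above Npr3 at 16.4, Ednra at 11.9 above Npr2 at 10.2, and Agtr1a at 3.53 above Edn3 at 2.73. Ace and Ece1 kept the first places at 291.7 and 81.8 FPKM. In neither group did the libraries of neighbours in the order overlap.

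For Ace, Ednrb and Npr3 the tables held 3 transcripts each, and a read shared by transcripts had been counted for each of them. Counts on the shorter Ace transcript NM_009598, known for the form of the enzyme made in testis, came to 62.7% and 62.4% of those on the chosen transcript in sham libraries versus 64.6% and 64.6% after PNX. Reads common to both transcripts cannot be told apart here, so these shares do not measure the testis form. The shortest transcripts of Ednrb and Npr3 held 73.1% to 73.8% and 94.0% to 94.7% of the counts of the chosen ones, with no separation of the groups. Counts summed over transcripts changed the call of none of the 10 genes.

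The study is on the co-activator YAP1, which acts through TEAD factors. The 250 bases before the start of Edn1, a gene past both thresholds, are shown because they hold a TEAD motif. Npr3 was past both thresholds too, and its window, which is not printed, does not hold that motif. The sequence is from RefSeq, GRCm38.p6, the assembly called mm10, and is written 5′ to 3′ on the strand of the gene, with the TEAD motif GGAATG on either strand in capitals. The Edn1 window is chr13:42301226-42301475 on the plus strand.
Edn1: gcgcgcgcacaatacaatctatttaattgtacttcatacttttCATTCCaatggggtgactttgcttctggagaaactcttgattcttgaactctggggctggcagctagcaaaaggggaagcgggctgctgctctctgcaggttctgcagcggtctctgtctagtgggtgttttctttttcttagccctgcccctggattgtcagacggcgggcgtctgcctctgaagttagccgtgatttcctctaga
The Edn1 window holds the motif once, on the opposite strand, starting 207 bases before the start. The RefSeq table gives 13 windows for 9 of the 10 genes, each before a transcript start, and 8 of them, with that of Npr3, overlap the widest annotated span of their gene. Of the 13, 1 holds GGAATG, beside 12.6% of 32851 mouse windows of the same length. The AP-1 motif TGANTCA is in 0 of the 13 and 6.75% of all windows, and the GATA motif GATAA is in 0 and 22.6%. The KLF motif CACCC is in 10 of the 13 windows, from 7 genes, and in 52% of all windows. Windows of a gene can share bases, as those of Ece1 that begin at 137861987 and 137862030 do. The 13 are therefore not all separate sequences. A match is a run of letters and was not tested for binding, and the search says nothing of sequence outside these windows.

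Other genes of these systems came from a list of 28, of which 24 were tested. At an adjusted p under 0.01, 10 were higher, 8 were lower and 6 did not pass, and the median log2 fold change was 0.12. By that rule 29.3% of all genes tested were higher and 27.8% lower. Past both thresholds 5 were higher and 0 lower in edgeR, beside 5.90% and 1.66% of all genes tested. The count of lower genes was 8 at an unadjusted p under 0.05 and 0 past both thresholds with DESeq2. The 5 were the chymase genes Cma1 and Mcpt4, the natriuretic peptide gene Nppb, the angiotensinogen gene Agt and the kinin B1 receptor gene Bdkrb1. Some chymases can form angiotensin II without ACE, which was not tested for Cma1 or Mcpt4.

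Raw counts of these 5 genes were low. Cma1 had 31 and 30 counts in sham libraries versus 321 and 249 after PNX, with a log2 fold change of 3.34 ± 0.158 (SE; adjusted p = 9.66e-28). Mcpt4 had 20 and 21 counts against 93 and 82, with a log2 fold change of 2.21 ± 0.232 (SE; adjusted p = 9.64e-13). Both chymases are products of mast cells, and all 4 markers of a mast cell list that includes them were higher, among them Cpa3 with 233 and 251 normalized counts against 376 and 372. Summed over that list the levels were 283 and 305 normalized counts in sham-operated ECs and 934 and 927 in post-PNX ECs. The part of these cells in the chymase differences was not tested.

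Nppb had 3 and 4 counts in sham libraries versus 18 and 9 after PNX (log2 fold change 2.03 ± 0.570, SE; adjusted p = 0.00150). Agt had 12 and 15 counts against 34 and 32, and Bdkrb1 had 35 and 26 against 67 and 66. The calls of Nppb and Agt rested on few reads and did not pass with DESeq2 (adjusted p = 0.0739 and 0.0274) or without sham replicate 1 (adjusted p = 0.0360 and 0.0107 in edgeR), where the count past both thresholds was 3 instead of 5. Nppb also did not pass without sham replicate 2 (adjusted p = 0.0102, edgeR), and without PNX replicate 1 it had too few counts to be tested. The receptor genes Agtr2 and Mas1, the renin gene Ren1 and Ostn had too few counts to be tested.

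The remaining genes of the list differed by less. Agtrap, whose product binds the angiotensin receptor, was lower at -0.60 ± 0.026 (log2 fold change and SE), Lnpep at -0.46 ± 0.028 and the neutral endopeptidase gene Mme, whose enzyme degrades natriuretic peptides, at -0.27 ± 0.029. Ece2, related to Ece1, was higher at 0.52 ± 0.098, and the precursor convertase gene Furin at 0.18 ± 0.023. Of the cyclic GMP effector and phosphodiesterase genes, the kinase Prkg2 at -0.49 ± 0.047 and the phosphodiesterase Pde3a at -0.37 ± 0.026 were lower. Pde5a at 0.15 ± 0.022 was higher. Scaling to pan-endothelial genes left 4 genes lower instead of 8 and turned Enpep from -0.12 to 0.14 and Prkg1 from -0.15 to 0.11, and Mme, at -0.0091, no longer passed (adjusted p = 0.793, edgeR).

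**Figure D4:**
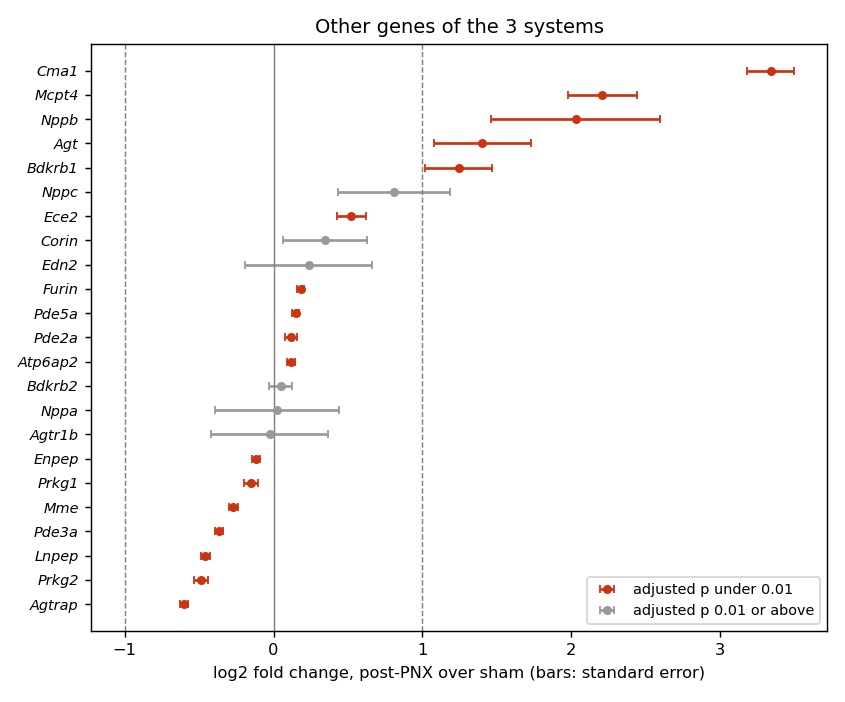
Log2 fold change of post-PNX over sham, with its SE as bars, for 23 of the 24 tested genes of the pathway list in order of value, red where the adjusted p is under 0.01 and grey otherwise, with dashed lines at -1 and 1. Cma1 at 3.34 and Mcpt4 at 2.21 are at the top, Agtrap at -0.60 is at the bottom, and Nppb at 2.03, with 3 to 18 counts per library, has the widest bar.

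Markers of endothelial subtypes and of other cells were read beside these genes. Counts of higher and lower genes in these lists are at an adjusted p under 0.01. By that rule 29.3% of all genes tested were higher and 27.8% lower. All 12 genes of the pan-endothelial list were tested, of which 10 were lower and 1 was higher, and their summed level was between 551913 and 557598 normalized counts in sham libraries and between 462218 and 463893 after PNX. That is a log2 difference of -0.26, near that of Ace. The general capillary list, with 6 of 7 genes lower and 1 higher, had a median log2 fold change of -0.45, and its marker Gpihbp1 was at -0.64 ± 0.022 (SE). For the aerocyte list, a capillary type known to express Ednrb, 4 of 6 genes were lower and 2 higher, with a median log2 fold change of -0.26 and a summed level that differed by -0.05, beside -0.58 for Ednrb. Its marker Car4 was higher at 0.24 ± 0.019 and its genes Fibin and Apln, named after their values were seen, were lower at -0.53 ± 0.025 and -0.40 ± 0.025.

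Of 7 arterial genes, 4 were lower and 3 higher, with a median log2 fold change of -0.11 that became 0.15 under the pan-endothelial scaling, and the marker Gja5 likewise turned from -0.11 to 0.15. Venous genes were higher in 3 of 4 cases and lower in 1 (Slc6a2 at 0.26 ± 0.021). Of 5 lymphatic genes tested, 1 was higher (Prox1 at 0.43 ± 0.057), 1 was lower (Lyve1 at -1.14 ± 0.018) and 3 did not pass. The mean of Lyve1 went from 44712 normalized counts in sham libraries to 20230 after PNX. The summed lymphatic level differed by -0.65 and the median over genes by -0.02, with a median of 0.24 under the pan-endothelial scaling.

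The smooth muscle and pericyte list marks cells in which Ednra and Agtr1a are known to be expressed. Of its 12 genes, 10 were higher and 0 lower in edgeR (0 also at an unadjusted p under 0.05), and their summed level went from 27582 and 27911 normalized counts in the sham libraries to 36531 and 36404 after PNX, a log2 difference of 0.39 beside 0.41 for Ednra and 0.44 for Agtr1a. Cspg4 was at 1.03 ± 0.052, Acta2 at 0.54 ± 0.026 and Myh11, which did not pass, at 0.08 ± 0.034 (adjusted p = 0.0393). The part of these cells in the levels of Ednra and Agtr1a was not tested.

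Fibroblast genes were higher in 6 of 8 cases and lower in 1 (Col1a1 at 2.34 ± 0.019 and Pdgfra at -0.23 ± 0.020), and their summed level went from between 35280 and 35402 to between 86890 and 87448 normalized counts. All 6 mesothelial genes and all 7 macrophage genes were higher, with summed log2 differences of 1.06 and 0.36, Msln and Wt1 at 1.97 and 2.68, and Adgre1 and Csf1r at 1.22 and 0.68. Ptprc, the common leukocyte gene, was at 0.00 ± 0.021 (adjusted p = 0.905). All 5 alveolar epithelial genes were lower, with Sftpc at 171272 and 170757 normalized counts in sham libraries versus 111404 and 110651 after PNX, and Ager at -0.38 ± 0.018. No defining marker was at 0 in the libraries, and the part of any of these cells in the differences of the 10 genes was not tested.

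**Figure D5:**
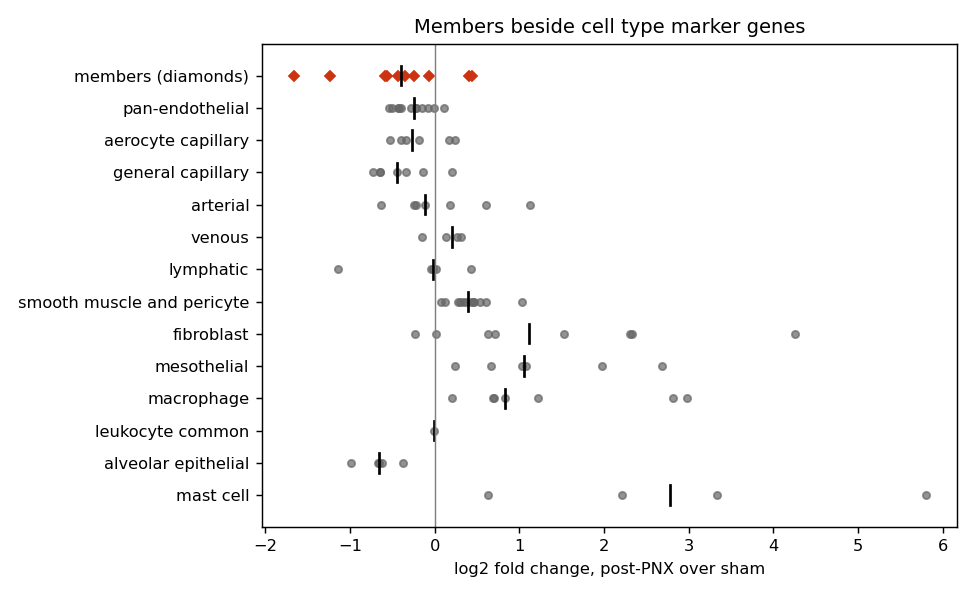
Log2 fold change of post-PNX over sham for each tested gene of the cell type lists (grey points, 1 row per list) and for the 10 genes (red diamonds), with a vertical line at the median of each row. The median of the 10 genes is -0.39, that of the general capillary list -0.45, that of the smooth muscle and pericyte list 0.40 and that of the mast cell list 2.77.

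Across the 4 libraries, the genes whose log2 level deviated from its own mean most like that of Npr3, by Euclidean distance among 13402 genes, were Igfbp3 at a distance of 0.063, Ptpru at 0.155 and Cyp1a1 at 0.159. For Agtr1a they were Slc16a3 at 0.019, Nfe2 at 0.020 and N6amt2 at 0.025. With 4 libraries in 2 tight groups, such a distance mostly measures the difference between groups, and their log2 fold changes were -1.71, -1.82 and -1.82 for the former and 0.45, 0.45 and 0.46 for the latter.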

How the data were processed

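For each library the authors deposited, per RefSeq transcript (33068 transcripts, mm10), raw read counts without normalization, with FPKM and TPM values that the authors deposited beside them. The submitters' processing notes name STAR, and versions are not given in the sources used here. The RNA libraries were stranded and sequenced as paired ends. Reads overlapping several transcripts were counted for each, so 1 transcript per symbol (most counts) was used. FPKM served to compare levels between genes, and TPM was not used. Totals over all transcripts were 65763553 to 81282871.

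Counts were fitted in R 4.3.3 with edgeR 4.0.16 (filterByExpr, TMM factors 0.998 to 1.00, quasi-likelihood F test, all 4 libraries, no covariates), with Benjamini-Hochberg adjustment over 16208 genes. A gene was called at an adjusted p under 0.01, alone or with a log2 fold change beyond 1. SE is the log2 fold change divided by the square root of F. The groups were 2 sham and 2 post-PNX libraries. In simulated data 198 of 200 changed genes were recovered and 0 of 16008 others were called. The changed genes were not among those with the fewest counts and were given differences beyond the fold threshold. Calls there needed both thresholds, and the spread was taken from these libraries. The simulation therefore did not test calls by adjusted p alone or smaller differences.

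The members and lists were chosen with earlier results of these data known. Named were the 10 members, pathway genes past both thresholds or whose normalized counts averaged 100 or more (not all are printed, and 1 of the list is counted but its values are not reported here), defining markers of each list and the 3 genes nearest to the members with the highest and lowest log2 fold change. Adgre1 is listed as Emr1. Alternatives were DESeq2 1.42.0 (size factors and Wald test), library size, scaling to 12 pan-endothelial genes, no filter, a mean of 50 counts, glmTreat, a replicate block, summed transcripts, an adjusted p under 0.05 and each library left out. Coordinates, gene symbols (10 of 10 matched) and promoter windows, of which the 250 bases before the start were used, came from RefSeq GRCm38.p6.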

Additional observations from a re-analysis of the deposited data

How the results depend on the processing

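The counts of the 10 genes past the thresholds (0 higher and 2 lower past both, 2 higher and 7 lower by adjusted p alone) were within 1.5 times of these under every alternative run, except that 1 gene, Npr3, was past both thresholds on the lower side when libraries were scaled to 12 pan-endothelial genes. Under that scaling the log2 fold change changed direction for Edn3 (0.19), Ace (0.012), Enpep (0.14) and Prkg1 (0.11), and 4 instead of 8 pathway genes were lower by adjusted p. The scaling itself adds 0.26 to every log2 fold change. Of the 10 genes' values under 12 alternatives each, 118 kept direction and side of the adjusted p threshold of 0.01 and 2 changed direction.

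Among pathway genes, 5 were higher past both thresholds in edgeR, against 2 with a mean of at least 50 counts, which leaves fewer genes tested, 3 with DESeq2's Wald test, 2 with glmTreat, and 3 to 5 with each library left out (3 without sham replicate 1). By adjusted p alone, 10 were higher in edgeR and 6 with DESeq2. The cause was not tested for the counts by DESeq2 and glmTreat. Of the values of named pathway genes, 201 kept direction and side of that adjusted p threshold, 20 lost the call, 1 gained it and 2 changed direction.

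By the methods, sham and post-PNX libraries of the same number hold different mice, so the main fit did not pair the libraries. The methods also give each library its own pool of 2 mice, which was not tested here. The deviations of same-numbered libraries from their group means had a correlation of 0.024 over 13402 genes. Libraries of a group were close together, so this value cannot show whether same-numbered libraries shared a batch. With the replicate block, the counts were again 0 and 2 past both thresholds and 2 and 7 by adjusted p for the 10 genes, and 5, 0, 10 and 8 in the same order for pathway genes. Depth did not limit the 10 genes, but Nppb, with 3 to 18 counts per library, is near the limit of 3 counts.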
